A study of Mus musculus with 9 samples.

Results

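Drug-metabolizing P450s and conjugating enzymes were read in mouse duodenum as 64 protein-coding genes. They were chosen by name (Cyp2, Cyp3a, the glutathione transferases Gsta, Gstm, Gstp, Gstt, Gsto and Gstk, Mgst, Ugt1a, Ugt2 and Sult) and by a mean of at least 0.5 FPKM (fragments scaled to transcript length and library size) over the 9 libraries. Of the 54532 genes measured, 124 had such a name, and 60 of these lay below the minimum, 22 of them at 0 in every library. The members just inside the minimum were Cyp3a59 at a mean of 0.503 FPKM, Cyp2j8 at 0.528 FPKM and Cyp2d9 at 0.539 FPKM, and the genes just outside were Cyp3a44 at 0.465 FPKM, Gsto2 at 0.294 FPKM and Cyp2c70 at 0.248 FPKM. The name rule also took Cyp20a1, an orphan P450 that is not of family Cyp2. By class there were 20 Cyp2 genes, Cyp20a1, 4 Cyp3a genes, 19 cytosolic and mitochondrial glutathione transferases (Gst), 3 microsomal ones (Mgst), 4 Ugt1a, 6 Ugt2 and 7 Sult genes.

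P450s of families Cyp2 and Cyp3a are haem enzymes of the endoplasmic reticulum that add oxygen to drugs, food chemicals, steroids and fatty acids, with electrons passed on by the reductase Por. Conjugating enzymes then attach a water-soluble group: glutathione transferases attach glutathione, UDP-glucuronosyltransferases (Ugt) a glucuronic acid and sulfotransferases (Sult) a sulfate. In the small intestine these enzymes sit mainly in enterocytes, where swallowed compounds are first met, and nuclear receptors that sense foreign compounds and bile acids set the level of many of them.

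RNA sequencing of duodenum was done in 3 groups of 3 libraries each, named here by group and replicate number. The CeD+GR libraries came from a celiac disease model made by delayed-type hypersensitivity (DTH), in mice that received composite nanoparticles of gliadin and rapamycin beforehand and then the enhanced gluten stimulus. The CeD libraries came from the same DTH model with the enhanced gluten stimulus and no nanoparticles, and the control libraries from wild-type (WT) mice with the non-enhanced one. No group had nanoparticles without the model, or the model without the stimulus, and the labels do not say that the libraries of a group came from separate mice, so all p-values measure the spread between these libraries only.

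The recovered reads assigned to genes ran from 15373260 to 16852104 per library, and 4.15% to 10.2% of them were mitochondrial. The 12 enterocyte markers were all above 0 in every library, and their summed level was 30948, 35254 and 9250 FPKM in CeD+GR 1, 2 and 3, 14274, 38345 and 29821 FPKM in CeD 1, 2 and 3, and 17995, 36545 and 29444 FPKM in control 1, 2 and 3. In markers of other tissues 4 libraries stood apart. CeD+GR 3 held all 7 gastric mucous cell markers, summed at 139700 FPKM against 0 to 50.5 FPKM in the others; CeD+GR 2 held all 7 adipocyte markers, summed at 468 FPKM against 45.1 to 108 FPKM; CeD 1 held 11 pancreas acinar markers, summed at 3944 FPKM against 14.6 to 76.3 FPKM. The 7 smooth muscle markers summed to 1005 FPKM in CeD 3 against 128 to 521 FPKM in the others. Of the hepatocyte markers, whose organ is the richest in these enzymes, Fgb, Fgg and Ahsg were at 0 in all libraries and Alb reached 0.407 FPKM at most; the 12 together summed to 9.61 to 225 FPKM, most of it Cps1, a urea cycle enzyme also made in gut epithelium (220 FPKM in CeD 1 and 155 FPKM in control 1), and Ttr in CeD+GR 3 (101 FPKM). The 3 libraries with replicate number 1 held the most Paneth cell markers, 2130, 2030 and 1061 FPKM in CeD+GR 1, CeD 1 and control 1, against 79.4 to 178 FPKM in the other libraries.

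No member passed limma's test in any comparison (adjusted p under 0.05 after Benjamini-Hochberg correction over 14683 genes), and nor did any other gene: percent called was 0 for CeD+GR against CeD, 0 for CeD against control and 0 for CeD+GR against control, and the smallest adjusted p of a member was 1 in all of them. At an unadjusted p under 0.05, limma gave 0 members higher and 3 lower in CeD+GR against CeD (Ugt1a6a, Gstm1 and Gstm3), beside 1.14% of all genes higher and 1.76% lower. In CeD against control it gave 0 higher and 0 lower, beside 0.272% and 0.429% of all genes. In CeD+GR against control it gave 1 higher (Gsta3) and 5 lower (Gstm3, Gstm7, Ugt2b35, Gstm1 and Sult4a1), beside 1.31% and 1.41% of all genes. With 3 libraries against 3 an exact permutation test of 1 gene cannot give a p below 0.1. Groups that did not overlap, every library of one on 1 side of every library of the other, were counted as well. In CeD+GR against CeD, 2 members lay lower with no overlap (Ugt1a6a and Gstm1), 3.12% beside 3.04% of all genes, and 2 higher (Sult1c2 and Gsta3), 3.12% beside 3.01%. In CeD+GR against control, 4 lay lower with no overlap (Gstm3, Gstm7, Ugt2b35 and Sult4a1), 6.25% beside 3.04%, and 2 higher (Gsta3 and Sult1c2), 3.12% beside 2.54%. In CeD against control, 1 lay lower (Cyp2d9), 1.56% beside 2.49%, and 1 higher (Ugt1a6a), 1.56% beside 2.2%. Apart from the 4 lower ones, these shares are near or below those of all genes.

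As a group the members were lower in CeD+GR 2 and 3 and not in CeD+GR 1: their mean log2(FPKM + 0.5) was 4.64, 4.19 and 3.98 in CeD+GR 1, 2 and 3, against 4.38, 4.89 and 4.35 in CeD and 4.39, 4.67 and 4.65 in control. In CeD+GR against CeD, 44 of 64 members had a log2 fold change below 0, which is 68.8% beside 48.9% of all genes tested, and the median was -0.27 for the members and 0.01 for all genes. In CeD+GR against control 49 of 64 were below 0, 76.6% beside 50.3%, with medians of -0.36 and -0.00. In CeD against control 33 of 64 were below 0, 51.6% beside 49.4%, with medians of -0.01 and 0.00. Fold changes are on the log2(FPKM + 0.5) scale throughout, and any 2 of the comparisons share the libraries of 1 group.

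The counts and medians moved with the library left out. Without CeD+GR 3, the library with gastric transcripts, 35 of 64 members were below 0 in CeD+GR against CeD (median -0.03) and 35 of 64 in CeD+GR against control (median -0.08). Without CeD+GR 1, 46 and 49 of 64 were below 0, with medians of -0.60 and -0.60. Without CeD+GR 2, 46 and 49 of 64 were below 0, with medians of -0.24 and -0.34. Without CeD 2, the CeD library richest in enterocyte markers, the median in CeD+GR against CeD was -0.04 with 38 of 64 below 0, and that in CeD against control was -0.22 with 49 of 64 below 0. Without control 1, 47 of 64 were below 0 in CeD against control (median -0.14). In whole tissue, fewer cells that make an enzyme and less of its RNA per cell cannot be told apart, and the part of enterocyte content in these values was not tested.

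**Figure D1:**
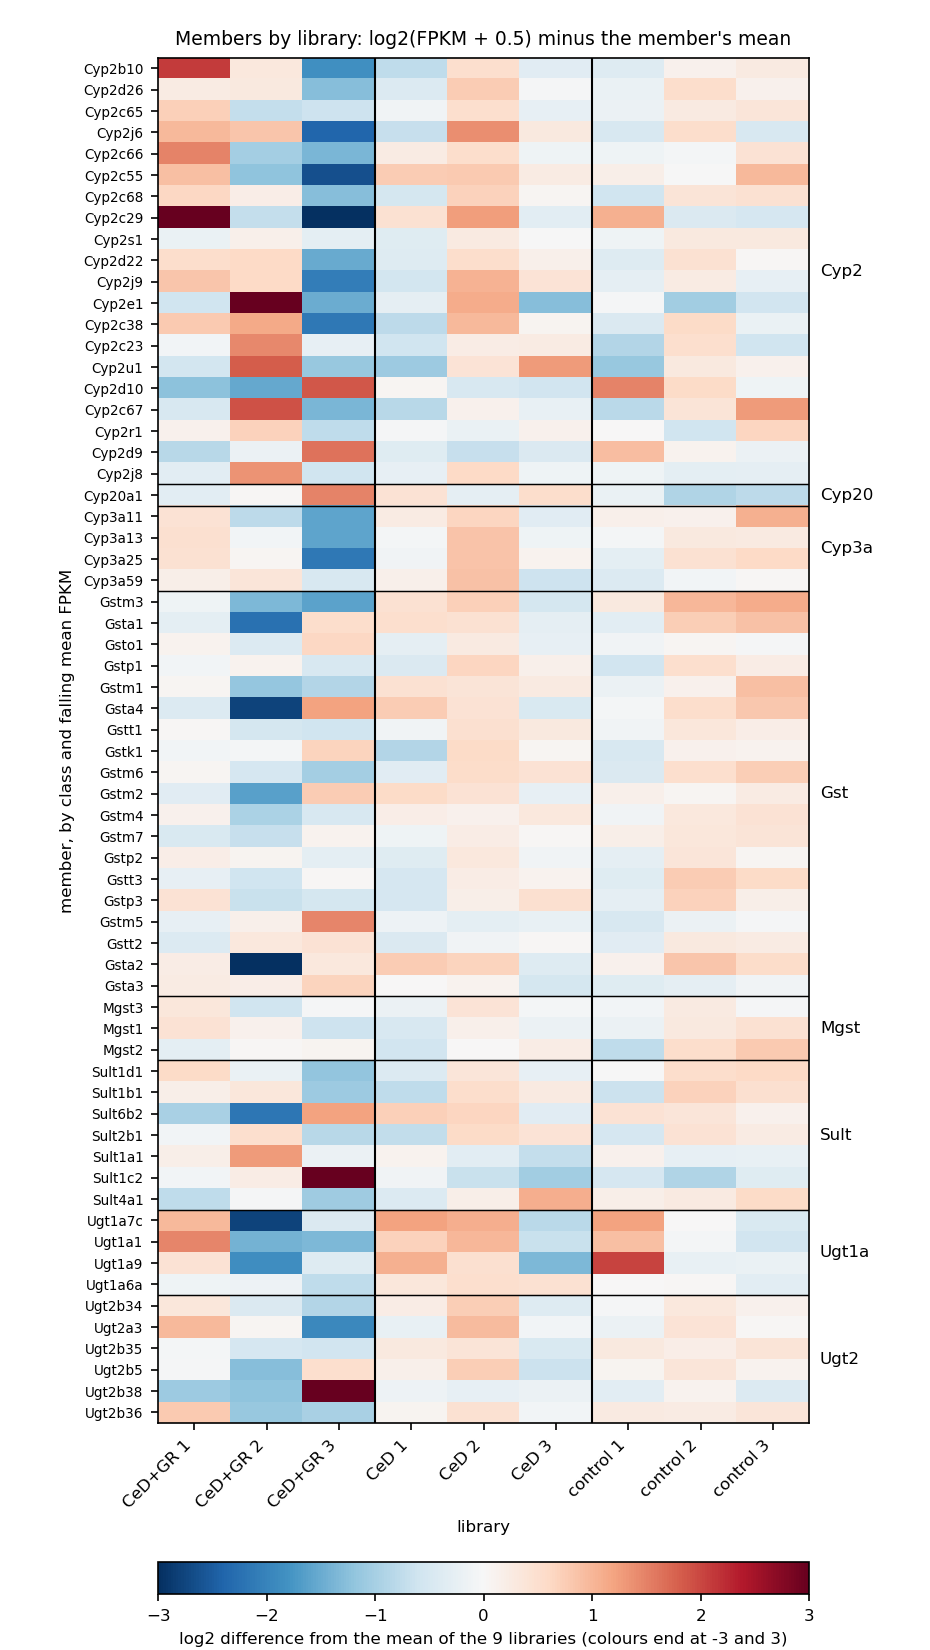
Heat map of the 64 members (rows, by class and falling mean FPKM) in the 9 libraries (columns, CeD+GR, CeD, control); colour gives log2(FPKM + 0.5) minus the member's mean over the libraries. The column of CeD+GR 3 is blue for 18 of 25 P450s, 3 of 6 Ugt2 and 4 of 7 Sult members at their lowest level, that of CeD+GR 2 holds the lowest level of 10 of 19 Gst, 3 of 4 Ugt1a and 3 of 6 Ugt2 members, and single dark red cells mark Cyp2c29 in CeD+GR 1, Cyp2e1 in CeD+GR 2 and Sult1c2 and Ugt2b38 in CeD+GR 3.

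Lowest levels lay in different CeD+GR libraries for different classes. Of the 25 P450s, 18 had their lowest level of the 9 libraries in CeD+GR 3, which is 72% beside 20.7% of all genes tested, and 2 had it in CeD+GR 2, 8% beside 23.9%. Of the 39 conjugating enzymes, 18 had it in CeD+GR 2, 46.2% beside 23.9%, and 12 in CeD+GR 3, 30.8% beside 20.7%. By class, CeD+GR 2 and CeD+GR 3 held the lowest level of 10 and 3 of the 19 Gst, 3 and 1 of the 4 Ugt1a, 3 and 3 of the 6 Ugt2, and 1 and 4 of the 7 Sult members. CeD+GR 2 was at the same time the highest library for 8 P450s, 32% beside 17.2% of all genes, most of them of low level, such as Cyp2e1, Cyp2c67, Cyp2u1 and Cyp2j8. These shares describe single libraries and carry no test, and the part of the gastric and adipocyte transcripts in them was not tested.

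**Figure D2:**
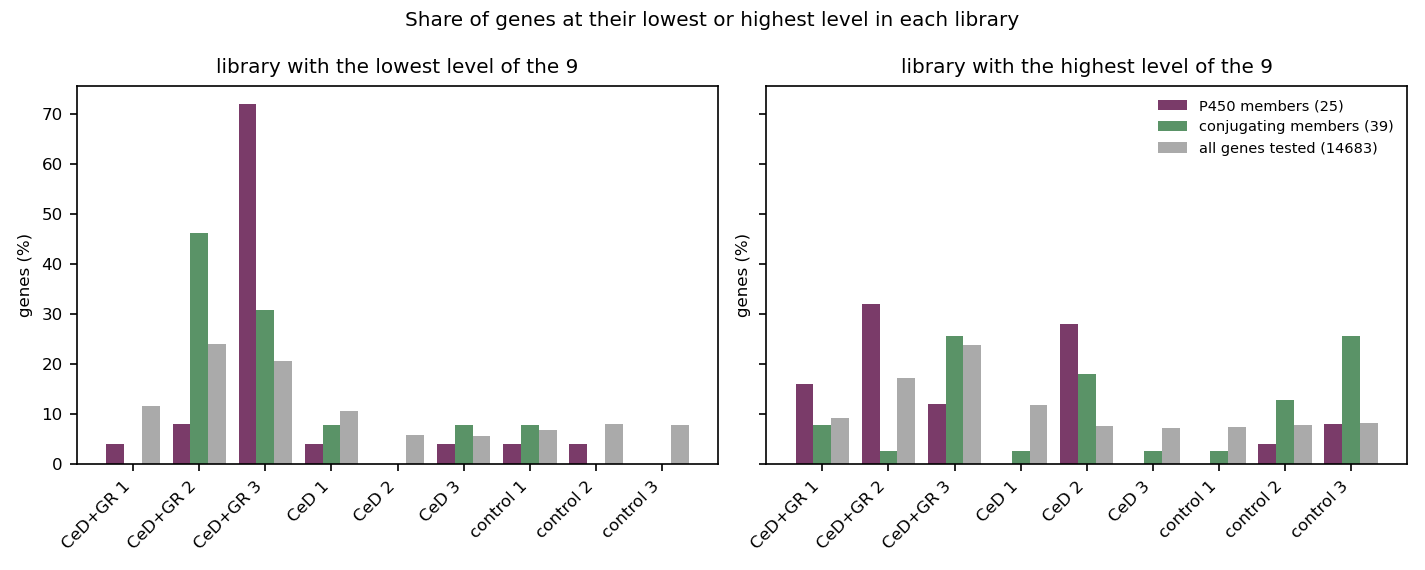
Bars give the percent of genes with their lowest (left) or highest (right) level of the 9 in each library, for the 25 P450 members, the 39 conjugating members and the 14683 genes tested. The P450 bar reaches 72% for the lowest level in CeD+GR 3 and the conjugating bar 46.2% in CeD+GR 2, above the grey bars of 20.7% and 23.9%.

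Cyp3a genes have the human relative CYP3A4, which oxidizes a large share of medicines, rapamycin among them, and Cyp3a11 and Cyp3a13 were the most abundant P450 members. Cyp3a11 had 889, 379 and 220 FPKM in CeD+GR 1, 2 and 3, against 774, 1030 and 516 FPKM in CeD 1, 2 and 3 and 731, 720 and 1381 FPKM in control 1, 2 and 3. Cyp3a13 had 904, 612 and 217 FPKM in the CeD+GR libraries, against 623, 1175 and 593 FPKM in CeD and 618, 796 and 786 FPKM in control. Cyp3a25 had 314, 238 and 51.2 FPKM in CeD+GR, against 211, 415 and 246 FPKM in CeD and 186, 312 and 345 FPKM in control. All 3 genes were lowest in CeD+GR 3, and the groups overlapped in each of them. CeD+GR 1 lay within the range of CeD for all 3, and for Cyp3a13 it lay above every control library. Cyp3a59, the fourth member, stayed between 0.121 and 1.25 FPKM on 4 to 36 reads per library. The median log2 fold change of the class was -0.72 in CeD+GR against CeD and -0.68 in CeD+GR against control, and it was -0.03 and 0.02 without CeD+GR 3, -1.19 and -1.15 without CeD+GR 1, and -0.42 in CeD+GR against CeD without CeD 2. In CeD against control it was 0.04, between -0.26 without CeD 2 and 0.21 without CeD 1. Cyp3a11, Cyp3a25 and Cyp3a59 lie in 1 cluster on chromosome 5 (mm10, chr5:145854426-146113287), and Cyp3a25 shares 26.8% of its 50-base windows of transcript with other genes, mostly with Cyp3a59.

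Among the Cyp2 genes the Cyp2b, Cyp2c, Cyp2d and Cyp2j subfamilies led. Cyp2b10, the best-known target of the receptor CAR (Nr1i3) in mouse liver, had 945, 271 and 61.2 FPKM in CeD+GR 1, 2 and 3, against 129, 311 and 173 FPKM in CeD and 169, 242 and 263 FPKM in control. CeD+GR thus held both its highest and its lowest library, and the level in CeD+GR 1 was 3.04 times that of the next library. Cyp2c29 had 293, 18.7 and 1.38 FPKM in CeD+GR, against 42.8, 74.1 and 24.7 FPKM in CeD and 65.3, 22.5 and 21.7 FPKM in control. It too was highest in CeD+GR 1, at 3.95 times the next library, and lowest in CeD+GR 3; it is named because of this spread, seen in its values. Cyp2c66, a neighbour of Cyp2c29, was also highest in CeD+GR 1 with 263 FPKM, 1.98 times the next library.

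The promoters of Cyp2b10 and Cyp2c29, 2 of the P450s that were highest in CeD+GR 1, picked after their values were seen, are shown from 250 bases before to 50 after the RefSeq start (GRCm38.p6, plus strand). Capitals mark GCGTG, the core bound by the aryl hydrocarbon receptor, and AGGTCA, the half-site of many nuclear receptors, on either strand (CACGC is GCGTG on the minus strand). The Cyp2b10 promoter is at chr7:25897408-25897707 and that of Cyp2c29 at chr19:39286835-39287134, inside the longer gene span that the deposited table gives.
Cyp2b10: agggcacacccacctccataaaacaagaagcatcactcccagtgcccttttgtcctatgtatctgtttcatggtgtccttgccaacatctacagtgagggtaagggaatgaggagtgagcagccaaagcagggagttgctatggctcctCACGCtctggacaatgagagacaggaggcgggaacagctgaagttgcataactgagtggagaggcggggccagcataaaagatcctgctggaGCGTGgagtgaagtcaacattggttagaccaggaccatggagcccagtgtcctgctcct
Cyp2c29: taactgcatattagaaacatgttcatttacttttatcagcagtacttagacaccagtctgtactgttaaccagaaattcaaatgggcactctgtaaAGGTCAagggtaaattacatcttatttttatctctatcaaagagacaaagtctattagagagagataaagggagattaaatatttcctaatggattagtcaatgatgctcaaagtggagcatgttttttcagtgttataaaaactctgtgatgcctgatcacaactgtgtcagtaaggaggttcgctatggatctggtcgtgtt

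Both runs of letters occur widely. GCGTG was found in 24.1% of 58 member promoters and in 32.5% of 27025 RefSeq promoters of the same length, and AGGTCA in 20.7% and 16%. The antioxidant response core TGACNNNGC, bound by NRF2 (Nfe2l2), was in 10.3% of the member promoters and in 12.5% of all, AGTTCA in 10.3% and 14%, and the HNF1 half-site GTTAAT in 15.5% and 7.2%. A match is only a run of letters in this window.

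Cyp2d26 and Cyp2c65 were the most abundant Cyp2 genes after Cyp2b10. Cyp2d26 had 258, 265 and 88.6 FPKM in CeD+GR, against 162, 366 and 211 FPKM in CeD and 190, 314 and 237 FPKM in control. Cyp2c65 had 344, 127 and 136 FPKM in CeD+GR, against 194, 294 and 176 FPKM in CeD and 184, 252 and 269 FPKM in control. Both overlapped between all groups; Cyp2d26 was lowest in CeD+GR 3, and Cyp2c65 was lowest in CeD+GR 2 and highest in CeD+GR 1. Cyp2c55, a P450 of the intestine that oxidizes arachidonic and linoleic acid, was the Cyp2 gene with the smallest p in CeD+GR against CeD. It had 121, 27.5 and 9.96 FPKM in CeD+GR, against 111, 112 and 76.5 FPKM in CeD and 73.6, 64.3 and 127 FPKM in control. CeD+GR 2 and 3 lay below every other library while CeD+GR 1 lay above all CeD ones, and the log2 fold change in CeD+GR against CeD was -1.59 (SE 0.75; limma, adjusted p 1), or -0.76 without CeD+GR 3 and -2.53 without CeD+GR 1. Cyp2j6, an arachidonic acid epoxygenase, ranged from 19.6 FPKM in CeD+GR 3 to 273 FPKM in CeD 2.

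The median log2 fold change of the 20 Cyp2 genes was -0.16 in CeD+GR against CeD and it was 0.44 without CeD+GR 3, 0.00 without CeD 2, -0.40 without CeD 1 and -0.56 without CeD+GR 1 or CeD+GR 2. It was -0.14 in CeD+GR against control, 0.48 without CeD+GR 3 and -0.49 without CeD+GR 1. In CeD against control it was 0.08, -0.19 without CeD 2, -0.08 without control 1 and 0.24 without CeD 1. Of the 20, 15 were lowest in CeD+GR 3. The exceptions on the high side in that library were Cyp2d10 and Cyp2d9, with 4.79 and 2.23 FPKM in CeD+GR 3. Cyp2d9 had 0, 0.287 and 2.23 FPKM in CeD+GR, 0.19, 0.0522 and 0.16 FPKM in CeD, and 1.18, 0.463 and 0.29 FPKM in control. All CeD values lay below all control values, on 2 to 9 reads per CeD library and 13 to 57 per control library, with a log2 fold change of -0.78 (SE 0.61; limma, adjusted p 1), or -0.47 without control 1. Cyp2d10 had 0.118, 0 and 4.79 FPKM in CeD+GR, 1.02, 0.547 and 0.479 FPKM in CeD and 3.57, 1.66 and 0.827 FPKM in control. CeD 1 lay above control 3 here, so CeD and control overlapped, and the log2 fold change was -0.97 (SE 0.84; limma, adjusted p 1), or -0.55 without control 1. Cyp2d10 had 13 to 30 reads per CeD library and 23 to 107 per control library. Other genes share 35.8% of the windows of Cyp2d10 and 21.8% of those of Cyp2d9.

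Cyp2e1, the ethanol-oxidizing P450 of liver and fat, was close to its floor in most libraries: it had 0.479, 26.7 and 0.0283 FPKM in CeD+GR, against 0.728, 2.7 and 0.112 FPKM in CeD and 0.942, 0.222 and 0.494 FPKM in control. CeD+GR 2 alone was high, with 907 reads, and Cyp2e1 is named for that. This library also held the adipocyte markers, with Adipoq at 26.6 FPKM against 0 to 1.51 FPKM elsewhere. The part of the adipocyte transcripts in the Cyp2e1 level was not tested. Cyp20a1 had 1.89, 2.56 and 7.84 FPKM in CeD+GR, 3.56, 2 and 3.8 FPKM in CeD, and 2.09, 1.11 and 1.24 FPKM in control. Its values in CeD+GR and in CeD overlapped those in control only through control 1, and the log2 fold change was 1.02 (SE 0.47) in CeD+GR against control and 0.86 (SE 0.47) in CeD against control (limma, adjusted p 1 each). Without CeD+GR 3 it was 0.48 in CeD+GR against control.

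**Figure D3:**
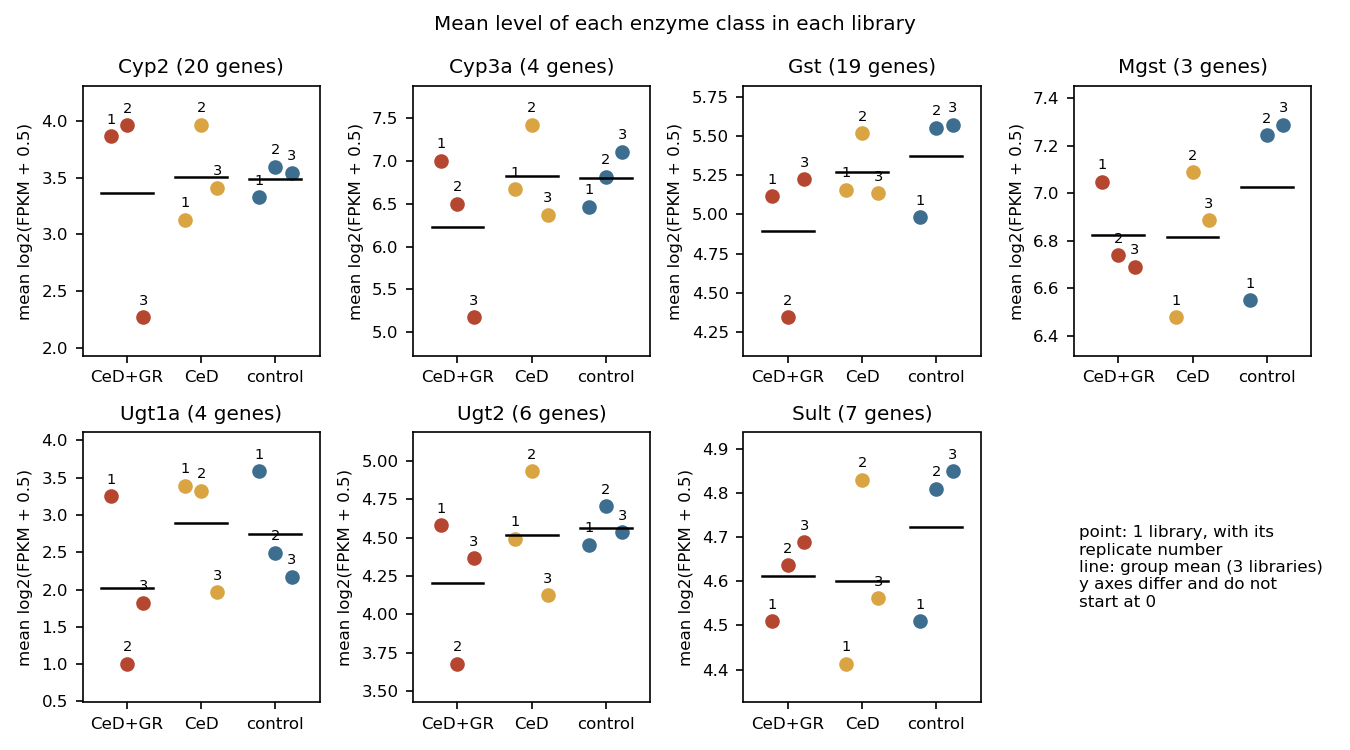
Points give the mean log2(FPKM + 0.5) of each class in each library, numbered by replicate, and lines the mean of 3 libraries, for CeD+GR, CeD and control from left to right; the axes differ and do not start at 0. CeD+GR 3 is the lowest point for Cyp2 (2.27) and Cyp3a (5.17), and CeD+GR 2 for Gst (4.35), Ugt1a (1) and Ugt2 (3.68).

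Glutathione transferases were the class with the most members near the top of the tests, most of them of the mu group (Gstm), which detoxifies epoxides and products of lipid oxidation. The 7 Gstm members lie together on chromosome 3 (mm10, chr3:107895821-108044894). Gstm3 had 290, 123 and 103 FPKM in CeD+GR, against 437, 522 and 220 FPKM in CeD and 385, 634 and 687 FPKM in control. All CeD+GR values lay below all control values, and CeD+GR 1 lay above CeD 3, so CeD+GR and CeD overlapped. The log2 fold change was -1.83 (SE 0.49) in CeD+GR against control, -1.25 (SE 0.49) in CeD+GR against CeD and -0.58 (SE 0.49) in CeD against control (limma, adjusted p 1 each), the last of which was -0.21 without CeD 3. The log2 fold change was below 0 in each comparison under the 21 alternatives, some of which cannot move it. In CeD+GR against control it lay between -2.54 and -1.54, where dropping 1 library cannot turn the sign because the groups do not overlap. Of the Gstm3 windows 28.8% are shared with other genes, 16% with the pseudogene Gm8834.

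Gstm1, a major mu enzyme of mouse liver, had 225, 97.5 and 119 FPKM in CeD+GR, against 301, 286 and 264 FPKM in CeD and 192, 238 and 407 FPKM in control. All CeD+GR libraries lay below all CeD libraries, which were close to each other, while CeD+GR 1 overlapped control. The log2 fold change was -1.04 (SE 0.39) in CeD+GR against CeD and -0.94 (SE 0.39) in CeD+GR against control (limma, adjusted p 1 each). Gstm4 had 23.6, 10.8 and 15.3 FPKM in CeD+GR, 24.8, 23.4 and 26.7 FPKM in CeD, and 19.9, 26.8 and 29.3 FPKM in control. CeD+GR 1 lay just above CeD 2, and the other CeD+GR libraries below every CeD and control library; the log2 fold change was -0.64 (SE 0.29) in CeD+GR against CeD and -0.65 (SE 0.29) in CeD+GR against control (limma, adjusted p 1 each), or -0.38 and -0.39 without CeD+GR 2. Gstm7 had 12.1, 10.2 and 17.8 FPKM in CeD+GR, 15.1, 19.5 and 17.2 FPKM in CeD, and 18.9, 21.3 and 21.9 FPKM in control. CeD+GR lay wholly below control, with a log2 fold change of -0.65 (SE 0.24), and that of CeD against control was -0.26 (SE 0.24; limma, adjusted p 1 each). Gstm5, a mu enzyme of brain and testis, went the other way in 1 library, with 24.8 FPKM in CeD+GR 3 against 6.15 to 9.79 FPKM in the other libraries; 13.9% of its exon bases overlap an antisense gene.

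The promoters of Gstm1 and Gstm3, the abundant mu pair with the lowest log2 fold changes, are shown as above (GRCm38.p6, minus strand, chr3:108017924-108018223 and chr3:107969125-107969424). Capitals mark GCGTG; the other letters searched were not found in either window.
Gstm1: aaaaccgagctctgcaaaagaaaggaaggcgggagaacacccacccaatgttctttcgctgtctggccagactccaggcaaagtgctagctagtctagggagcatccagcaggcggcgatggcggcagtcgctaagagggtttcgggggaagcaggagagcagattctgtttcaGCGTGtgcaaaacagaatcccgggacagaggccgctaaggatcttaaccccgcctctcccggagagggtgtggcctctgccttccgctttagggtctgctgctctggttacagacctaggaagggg
Gstm3: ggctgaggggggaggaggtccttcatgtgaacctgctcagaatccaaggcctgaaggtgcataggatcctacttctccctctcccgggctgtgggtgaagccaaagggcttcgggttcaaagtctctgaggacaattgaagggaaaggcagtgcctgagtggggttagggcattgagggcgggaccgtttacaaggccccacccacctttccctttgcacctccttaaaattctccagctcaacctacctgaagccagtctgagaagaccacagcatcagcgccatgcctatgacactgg

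Alpha enzymes (Gsta) also reduce lipid peroxides. Gsta1 and Gsta4 had a pattern other than that of Gstm3, though it was not particular to alpha enzymes. Gsta1 had 226, 59.2 and 401 FPKM in CeD+GR, against 398, 382 and 232 FPKM in CeD and 225, 467 and 518 FPKM in control. Gsta4, which conjugates hydroxynonenal and is named for its spread, had 105, 20.1 and 325 FPKM in CeD+GR, against 237, 189 and 102 FPKM in CeD and 135, 203 and 245 FPKM in control. In both genes CeD+GR 2 was far below every other library and CeD+GR 3 was not low, so a group mean describes neither. The mu gene Gstm2, named after its values were seen, was like Gsta4 lowest in CeD+GR 2 and highest in CeD+GR 3. Gstm2 had 18.2, 7.18 and 39.9 FPKM in CeD+GR, 34.4, 31.2 and 19.4 FPKM in CeD, and 25.8, 24 and 27.6 FPKM in control. Of the windows of Gsta1, 90.5% occur in other genes, 75.7% in Gm3776, which was itself listed at 51.5, 12.6 and 74.5 FPKM in CeD+GR, 70.3, 80 and 36 FPKM in CeD and 42.9, 63.7 and 104 FPKM in control, so reads of these genes can be split between them. Gsta4 shares none. Gsta2 had 0 reads in CeD+GR 2 and 55 to 144 in the other libraries. Gsta3, whose human relative also isomerizes steroids, was the only member with an unadjusted p under 0.05 in the higher direction: it had 1.83, 1.74 and 2.6 FPKM in CeD+GR, 1.47, 1.61 and 0.866 FPKM in CeD, and 1.02, 1.12 and 1.32 FPKM in control. Its CeD+GR values were all above those of both other groups, on 119 to 185 reads per library against 62 to 114 in the others, and the log2 fold change in CeD+GR against control was 0.62 (SE 0.26; limma, adjusted p 1).

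Beside Gsta4, the marker Pdx1, a transcription factor of proximal duodenum and antrum, was 1.59, 0.118 and 46 FPKM in CeD+GR, 25.3, 12 and 6.64 FPKM in CeD, and 27.2, 26 and 26.3 FPKM in control. CeD+GR 2 was thus lowest and CeD+GR 3 highest for Pdx1 as for Gsta4, but Gata6 and Fzd5, on the same marker list, had their lowest level in CeD+GR 3, at 15.7 and 8.69 FPKM. The summed level of all 6 proximal duodenum markers ranged from 68.1 to 154 FPKM in CeD+GR, from 96.3 to 140 FPKM in CeD and from 125 to 151 FPKM in control. The part of the position of the sampled piece was not tested.

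Pi, theta, omega and kappa enzymes varied by smaller folds than Gsta1, Gsta4 and Gstm3, though not than every mu enzyme. Gstk1, the kappa enzyme, ran from 26 FPKM in CeD 1 to 76.9 FPKM in CeD+GR 3. Gsto1, which reduces methylated arsenic and dehydroascorbate, had 314, 218 and 450 FPKM in CeD+GR, against 242, 352 and 247 FPKM in CeD and 269, 304 and 285 FPKM in control. Gstt1, a theta enzyme that acts on small halogenated compounds, had 55.6, 37.1 and 35.5 FPKM in CeD+GR, against 50.1, 75.9 and 65.9 FPKM in CeD and 50.5, 68.4 and 61.8 FPKM in control. CeD+GR 2 and 3 lay below every CeD and control library and CeD+GR 1 among them, with a log2 fold change of -0.58 (SE 0.26) in CeD+GR against CeD (limma, adjusted p 1). Gstt3 had 10.5, 8.06 and 12.7 FPKM in CeD+GR, 8.66, 14.7 and 13.4 FPKM in CeD, and 9.49, 21.3 and 18.8 FPKM in control, with a log2 fold change of -0.37 (SE 0.34) in CeD against control (limma, adjusted p 1). CeD and control overlapped only through control 1, and the value was -0.15 without CeD 1 and -0.72 without control 1. Gstp1, the pi enzyme common outside the liver, ranged from 186 to 440 FPKM over all libraries, and shares 33.7% of its windows with Gstp2. The median over the 19 Gst genes was -0.39 in CeD+GR against CeD, -0.55 in CeD+GR against control and -0.05 in CeD against control; without CeD+GR 2 the median in CeD+GR against CeD was -0.08, without CeD+GR 1 it was -0.65, and without CeD+GR 3 it was -0.44. The median in CeD+GR against control was -0.25 without CeD+GR 2, and that in CeD against control -0.28 without control 1 and -0.22 without CeD 2.

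Microsomal glutathione transferases, membrane enzymes that conjugate glutathione and reduce lipid peroxides or make leukotrienes, had overlapping groups throughout. Mgst3 had 277, 144 and 212 FPKM in CeD+GR, against 194, 293 and 210 FPKM in CeD and 206, 263 and 212 FPKM in control. Mgst1 had 167, 134 and 79.3 FPKM in CeD+GR, against 87.4, 137 and 110 FPKM in CeD and 109, 150 and 168 FPKM in control. Mgst2 had 49.4, 62.3 and 64.2 FPKM in CeD+GR, against 40.8, 61.6 and 71.1 FPKM in CeD and 35.9, 87.6 and 106 FPKM in control. No group stood apart from another in any of the 3 genes, and the class medians were 0.05, -0.21 and -0.30 in CeD+GR against CeD, CeD+GR against control and CeD against control. With 1 library left out they lay between -0.18 and 0.14, between -0.39 and -0.08, and between -0.53 and -0.03.

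**Figure D4:**
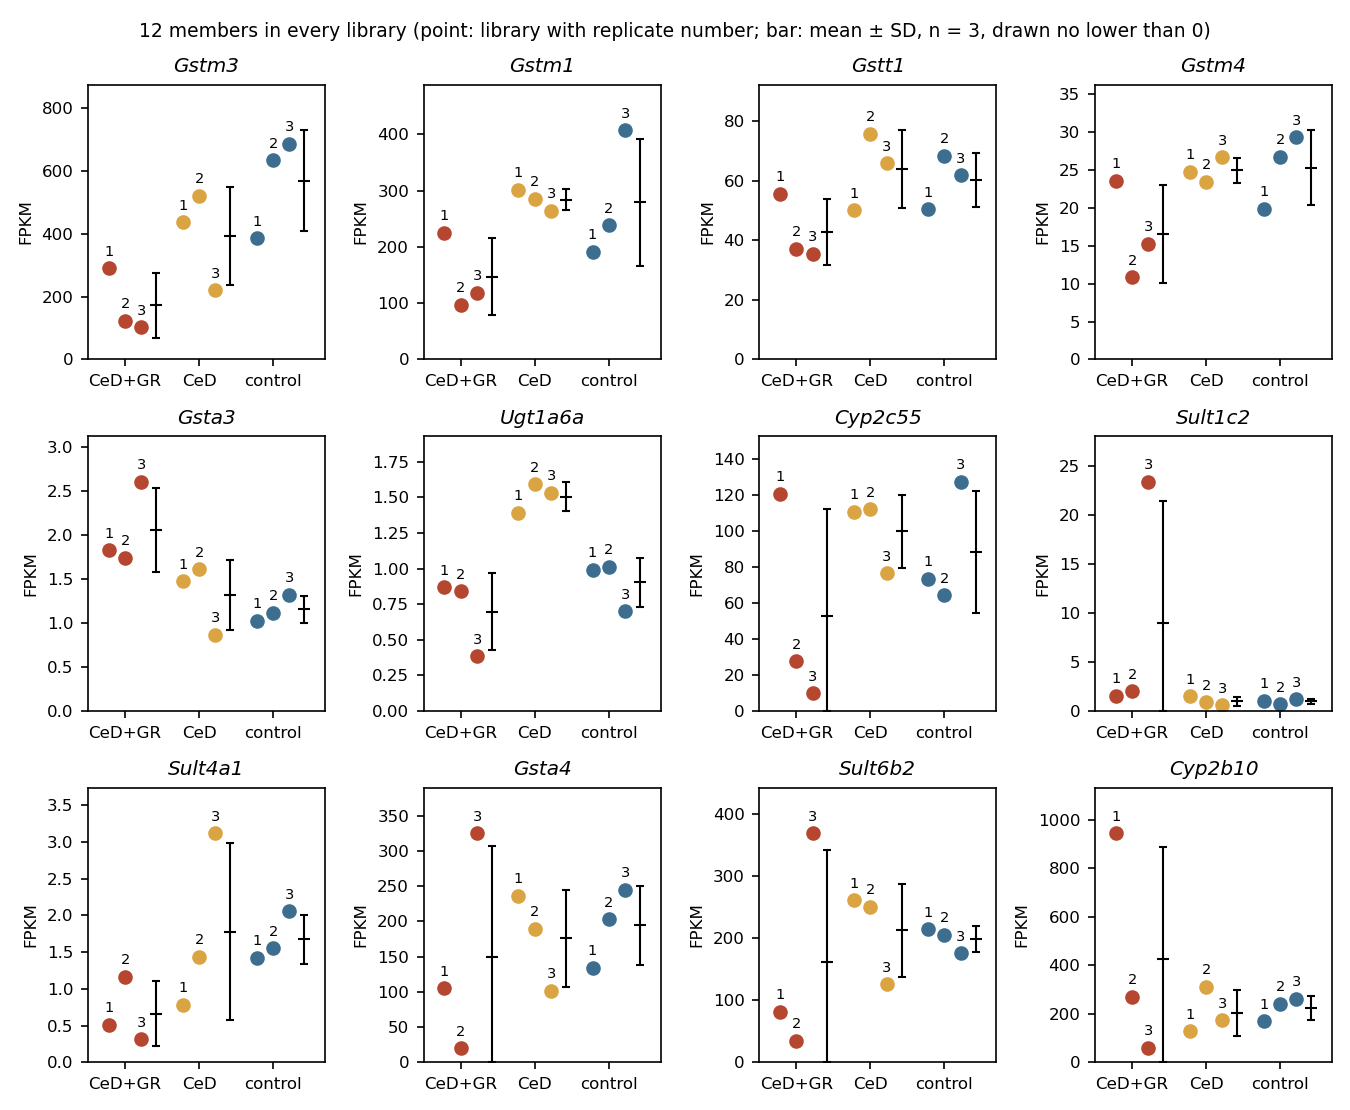
FPKM of 12 members in every library (points, numbered by replicate) with the mean and SD of 3 libraries (bars, drawn no lower than 0), for CeD+GR, CeD and control from left to right. Gstm1 and Ugt1a6a are lower in all CeD+GR libraries than in any CeD library, Sult1c2 is set by the 23.4 FPKM of CeD+GR 3, and Gsta4 and Sult6b2 have their highest and lowest library within CeD+GR.

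Ugt1a enzymes attach glucuronic acid to bilirubin, phenols and drugs. They are made from 1 gene complex on chromosome 1 (mm10, chr1:88070800-88220002), in which each member has its own first exon and all share later exons. The junction is shown for the 4 members as 30 bases of each member's own first exon in lower case and the first 30 shared bases in capitals (GENCODE M21, GRCm38, chromosome 1, plus strand).
Ugt1a1: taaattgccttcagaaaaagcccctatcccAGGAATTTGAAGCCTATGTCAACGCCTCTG
Ugt1a6a: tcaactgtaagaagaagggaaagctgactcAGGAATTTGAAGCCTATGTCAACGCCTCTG
Ugt1a7c: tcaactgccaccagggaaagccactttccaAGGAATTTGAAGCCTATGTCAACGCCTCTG
Ugt1a9: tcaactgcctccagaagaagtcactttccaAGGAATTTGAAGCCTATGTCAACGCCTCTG

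The shared stretch is 1313 bases long, and 52.1% to 62% of the windows of each member are found in other genes. Reads that lie within shared sequence cannot be told apart. An antisense gene, Gm20528, overlaps 41.5% of the exon bases of Ugt1a1, 18% of Ugt1a9, 9.34% of Ugt1a7c and 9.14% of Ugt1a6a. Ugt1a7c ends at base 88220002 of chromosome 1 and the other members at 88218997, so not all sequence after the first exon need be shared. Ugt1a7c had 46.1, 2.95 and 16.9 FPKM in CeD+GR, against 54.3, 50 and 13 FPKM in CeD and 54.1, 23.3 and 16.7 FPKM in control. Ugt1a1, the bilirubin enzyme, had 51.1, 6.51 and 6.79 FPKM in CeD+GR, against 29.8, 36.9 and 11.3 FPKM in CeD and 34.2, 17.5 and 12 FPKM in control. Ugt1a9 had 1.98, 0 and 0.894 FPKM in CeD+GR, 3.33, 2.06 and 0.222 FPKM in CeD, and 6.9, 1.06 and 1.08 FPKM in control. The summed level of the 4 members was 100.03, 10.3 and 25 FPKM in CeD+GR, 88.9, 90.6 and 26 FPKM in CeD, and 96.2, 42.8 and 30.5 FPKM in control. Replicate 1 of every group and CeD 2 held 88.9 FPKM or more, and the other libraries 42.8 FPKM or less; the replicate 1 libraries were also those rich in Paneth cell markers, and the part of these cells was not tested.

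Ugt1a6a, the phenol enzyme, was the member with the smallest p in CeD+GR against CeD. It had 0.868, 0.839 and 0.383 FPKM in CeD+GR, against 1.39, 1.59 and 1.53 FPKM in CeD and 0.994, 1.01 and 0.701 FPKM in control. All CeD libraries lay above all others, on 99 to 109 reads per CeD library, 27 to 58 per CeD+GR library and 51 to 78 per control library. The log2 fold change was -0.77 (SE 0.27) in CeD+GR against CeD and 0.52 (SE 0.27) in CeD against control (limma, adjusted p 1 each). The median of the 4 Ugt1a genes was -0.78 in CeD+GR against CeD, -0.76 in CeD+GR against control and 0.25 in CeD against control, and without CeD+GR 2 it was -0.26 in CeD+GR against CeD and -0.19 in CeD+GR against control. Left-out libraries moved it to -1.47 (without CeD+GR 1) and -1.34 (without CeD 3) in CeD+GR against CeD, and to -1.57 (without CeD+GR 1) and -0.29 (without control 1) in CeD+GR against control. In CeD against control it was -0.09 without control 3, -0.06 without CeD 2, -0.01 without CeD 1, 0.62 without control 1 and 0.64 without CeD 3.

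Ugt2 enzymes glucuronidate steroids, bile acids and many drugs, and lie with 2 sulfotransferases in 1 run of chromosome 5 (mm10, chr5:86889767-87569027). Ugt2b34, the most abundant, had 249, 145 and 107 FPKM in CeD+GR, against 231, 328 and 152 FPKM in CeD and 193, 245 and 216 FPKM in control. Ugt2a3, an intestinal and hepatic enzyme for bile acids, had 126, 66 and 16.4 FPKM in CeD+GR, against 54.5, 123 and 59.9 FPKM in CeD and 56.3, 85 and 64.9 FPKM in control. Both overlapped between groups and were lowest in CeD+GR 3. Ugt2b35 had 20.9, 15.3 and 14.4 FPKM in CeD+GR, 27.1, 28.9 and 15.8 FPKM in CeD, and 26.8, 25.3 and 28.9 FPKM in control. CeD+GR lay wholly below control, with a log2 fold change of -0.68 (SE 0.27; limma, adjusted p 1), and overlapped CeD through CeD 3. Ugt2b38, named for a single library, had 1.16, 1.04 and 39.7 FPKM in CeD+GR, 2.73, 2.5 and 2.63 FPKM in CeD, and 2.38, 3.32 and 2.19 FPKM in control; CeD+GR 3 was 12 times the next library and the other CeD+GR libraries were the lowest of the 9. It shares 37.4% of its windows with other genes, mostly Ugt2b5. The class median was -0.49 in CeD+GR against CeD, -0.47 in CeD+GR against control and -0.05 in CeD against control. In CeD+GR against CeD it was -0.20 without CeD 2 and -0.74 without CeD+GR 1. In CeD+GR against control it was -0.82 without CeD+GR 1. In both CeD+GR comparisons it was below 0 under the 21 alternatives, some of which cannot move it.

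Sulfotransferases, which need the sulfate donor PAPS, split by gene. Sult1d1, an enzyme for catecholamines and phenols, had 367, 213 and 108 FPKM in CeD+GR, against 185, 317 and 206 FPKM in CeD and 244, 358 and 372 FPKM in control; the log2 fold change in CeD against control was -0.47 (SE 0.46; limma, adjusted p 1) with overlap. Sult1b1, the thyroid hormone and phenol enzyme of the gut, had 202, 230 and 85 FPKM in CeD+GR, against 106, 260 and 216 FPKM in CeD and 115, 292 and 251 FPKM in control. Sult6b2 had 81.4, 35.1 and 369 FPKM in CeD+GR, against 261, 250 and 126 FPKM in CeD and 215, 206 and 176 FPKM in control. Like Gsta4 it was lowest in CeD+GR 2 and highest in CeD+GR 3, whereas Sult1d1 and Sult1b1 were lowest in CeD+GR 3.

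Sult1c2 had 1.57, 2.03 and 23.4 FPKM in CeD+GR, against 1.52, 0.865 and 0.559 FPKM in CeD and 1.04, 0.666 and 1.19 FPKM in control. No CeD+GR value overlapped the other groups, but CeD+GR 3 was 11.5 times the next library, and CeD+GR 1 lay just above CeD 1. The log2 fold change in CeD+GR against CeD was 1.81 (SE 0.81; limma, adjusted p 1), and 0.68 without CeD+GR 3. Sult1c2 is known in human as an enzyme of stomach and kidney, and the gastric markers of CeD+GR 3 stand beside this value; their part was not tested. Sult4a1, a brain form with no known common substrate, had 0.514, 1.16 and 0.317 FPKM in CeD+GR, 0.781, 1.44 and 3.12 FPKM in CeD, and 1.42, 1.55 and 2.05 FPKM in control, on 13 to 129 reads per library. CeD+GR lay wholly below control and overlapped CeD through CeD 1, with log2 fold changes of -0.96 (SE 0.42) in CeD+GR against control and -0.90 (SE 0.42) in CeD+GR against CeD (limma, adjusted p 1 each), the second of which was -0.50 without CeD 3. The class median was -0.20 in CeD+GR against CeD, -0.36 in CeD+GR against control and -0.05 in CeD against control; without CeD+GR 3 it was 0.24 in CeD+GR against CeD and 0.08 in CeD+GR against control. It was also 0.06 without CeD 2 and -0.59 without CeD 1 in CeD+GR against CeD, and in CeD+GR against control -0.77 without control 1 and -0.10 without control 2.

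**Figure D5:**
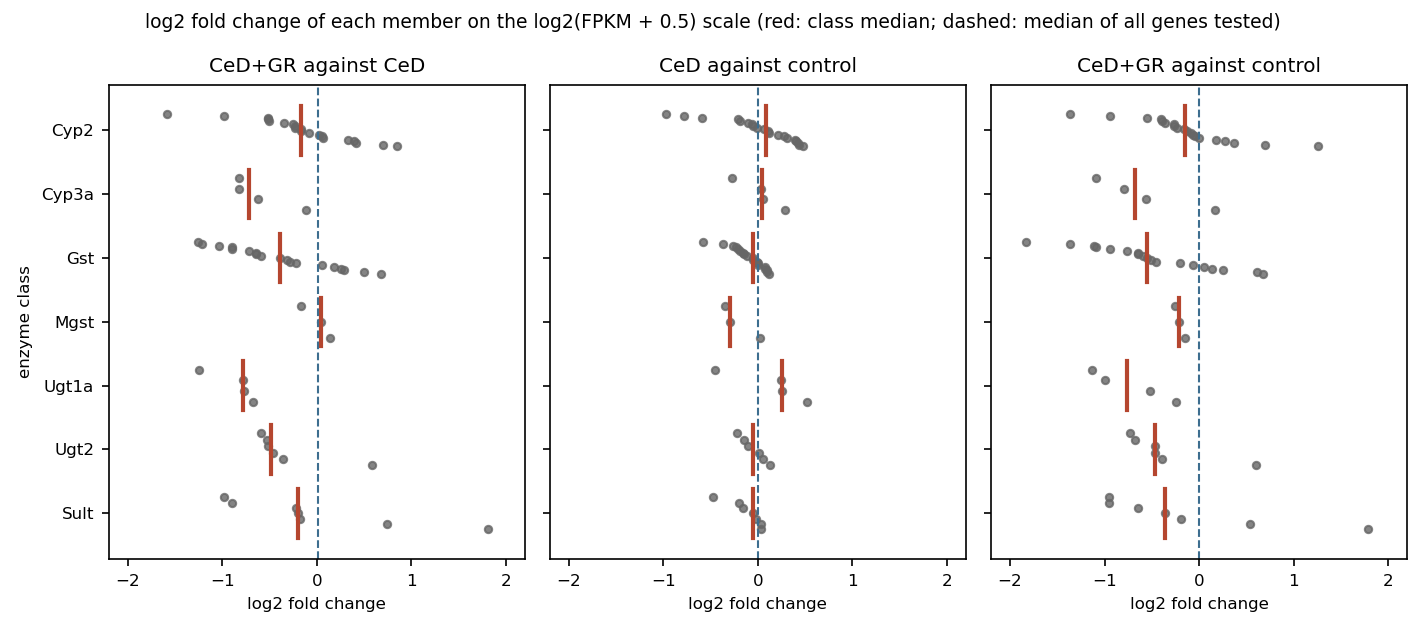
Each grey point is the log2 fold change of 1 member, on the log2(FPKM + 0.5) scale, in CeD+GR against CeD, CeD against control and CeD+GR against control; red bars are class medians, the dashed line is the median of all genes tested, and Cyp20a1 is not drawn. All 4 Cyp3a and all 4 Ugt1a points lie left of 0 in CeD+GR against CeD, while in CeD against control the class medians lie between -0.30 and 0.25.

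The genes that serve these enzymes were read from lists of related function. Of 14 receptors and partners that set enzyme levels, 0 passed the test in any comparison. Below 0 were 12 in CeD+GR against CeD (median -0.34), 13 in CeD+GR against control (median -0.32) and 6 in CeD against control (median 0.05). Of all genes tested, 48.9%, 50.3% and 49.4% were below 0 in these comparisons. The list counts were not made with a library left out. The 14 summed to 560, 504 and 319 FPKM in CeD+GR 1, 2 and 3, against 506 to 630 FPKM in CeD and 546 to 629 FPKM in control. Vdr, the vitamin D receptor, had 62.4, 55.1 and 43.4 FPKM in CeD+GR, against 89.1, 76.8 and 53 FPKM in CeD and 86, 84.2 and 81.3 FPKM in control, with CeD+GR wholly below control and a log2 fold change of -0.66 (SE 0.25; limma, adjusted p 1). Of 19 genes for electron donors and cofactors, 0 passed, and 14, 14 and 10 were below 0 in CeD+GR against CeD, CeD+GR against control and CeD against control. The 19 summed to 2140, 1911 and 1830 FPKM in CeD+GR 1, 2 and 3, against 2316 to 3200 FPKM in CeD and 2379 to 3457 FPKM in control. Papss2, the synthase of PAPS for sulfation, had 309, 234 and 796 FPKM in CeD+GR, against 851, 983 and 921 FPKM in CeD and 902, 1286 and 1207 FPKM in control. All CeD+GR libraries lay below both other groups, with log2 fold changes of -1.24 (SE 0.47) against CeD and -1.53 (SE 0.47) against control (limma, adjusted p 1 each). Its paralogue Papss1 had 23.4, 21.1 and 49.7 FPKM in CeD+GR, against 14.3, 21.6 and 15.7 FPKM in CeD and 14.3, 20 and 14.8 FPKM in control, with CeD+GR wholly above control and a log2 fold change of 0.82 (SE 0.34; limma, adjusted p 1), or 0.44 without CeD+GR 3.

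Of 37 other phase I enzymes tested out of 39 listed, 0 passed. In CeD+GR against CeD, CeD+GR against control and CeD against control, 33, 33 and 18 were below 0, with medians of -0.46, -0.44 and 0.01. The shares over all genes were 48.9%, 50.3% and 49.4%. The 39 listed summed to 5354, 4568 and 1631 FPKM in CeD+GR 1, 2 and 3, against 3587 to 6847 FPKM in CeD and 3788 to 6014 FPKM in control. Cyp1a1, the classic target of the aryl hydrocarbon receptor, had 0.394, 1.59 and 0.176 FPKM in CeD+GR, against 10.8, 40.7 and 1.61 FPKM in CeD and 0.552, 1.1 and 0.425 FPKM in control. All CeD libraries lay above all others, CeD 3 only just over CeD+GR 2, and the log2 fold change was -3.20 (SE 0.93) in CeD+GR against CeD and 3.10 (SE 0.93) in CeD against control (limma, adjusted p 1 each). Ephx1, the microsomal epoxide hydrolase that acts on products of P450s, had 12.2, 9.18 and 18.1 FPKM in CeD+GR, against 36.4, 24.7 and 20.2 FPKM in CeD and 30.9, 23.6 and 26.9 FPKM in control. No CeD+GR value reached either group, with log2 fold changes of -1.02 (SE 0.30) against CeD and -1.06 (SE 0.30) against control (limma, adjusted p 1 each). Of 6 other conjugating enzymes tested out of 10 listed, 0 passed and 3 were below 0 in CeD+GR against CeD, with a median of -0.10.

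Of 14 drug transporters tested out of 15 listed, 0 passed. In CeD+GR against CeD, CeD+GR against control and CeD against control, 14, 12 and 6 were below 0, with medians of -0.24, -0.34 and 0.02. The shares over all genes were 48.9%, 50.3% and 49.4%. The 15 listed summed to 442, 440 and 171 FPKM in CeD+GR 1, 2 and 3, against 388 to 739 FPKM in CeD and 356 to 499 FPKM in control. Abcc2, which pumps glucuronides and glutathione conjugates out through the apical membrane, had 30.5, 34.6 and 14 FPKM in CeD+GR, against 74.9, 93 and 38.2 FPKM in CeD and 55.1, 55.8 and 42.2 FPKM in control. All CeD+GR values were below both other groups, with log2 fold changes of -1.37 (SE 0.42) against CeD and -1.03 (SE 0.42) against control (limma, adjusted p 1 each); without CeD+GR 3 they were -0.98 and -0.63. Abcb1a, the efflux pump P-glycoprotein, had 43.4, 27.6 and 7.09 FPKM in CeD+GR, against 65.7, 156 and 43 FPKM in CeD and 45.8, 49.3 and 39.2 FPKM in control. CeD+GR 1 lay just above CeD 3, and the log2 fold change in CeD+GR against CeD was -1.86 (SE 0.66; limma, adjusted p 1), or -1.13 without CeD+GR 3.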

How the data were processed

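RNA was measured in 9 mouse duodenum libraries, 3 per group, grouped by the treatment label. Ribosomal RNA was removed and libraries were directional, per the labels' protocols. The authors deposited FPKM per gene in 1 table of 54532 genes with positions on mm10. DESeq2 1.20.0, featureCounts 1.5.0-p3, HISAT2 2.0.5 and fastp are named in the submitters' processing notes, without roles. Neither the annotation release nor the strand setting is given in the sources used here, so antisense overlaps cannot be told apart. The members and gene lists were chosen with earlier results of these data known.

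The main test was limma 3.58.1 (R 4.3.3) on log2(FPKM + 0.5), fitted to all 9 libraries with group means and a mean-variance trend. It ran on the 14683 genes whose mean reached 0.5 FPKM. Adjusted p-values are Benjamini-Hochberg, two-sided, with a threshold of 0.05. Members were named with fold changes where they had 1 of the 8 smallest p of a comparison. Levels in every library were given for these members and for the 3 most abundant of each class. Up to 3 genes of each list were named by their p likewise, and members chosen after their values were seen are said to be. FPKM times length gave whole reads, within 0.1, for 99.98% to 100% of values, and these reads served an alternative with limma-voom.

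Sequence sharing was counted in 50-base windows of GENCODE M21 transcripts, where 60 of 64 deposited lengths equal the exon union. Promoters came from RefSeq (GRCm38.p6), with 58 of 64 members matched by symbol. Same-numbered CeD and control libraries deviated together over all genes (correlations of 0.71, 0.37 and 0.41). Of differently numbered ones, CeD 3 with control 2 had 0.46, CeD 2 with control 3 had 0.17, and the others -0.62 to -0.38. Only number 1 lay above every differently numbered pair, so these values do not settle whether the numbers pair the libraries, and no label says so. In all, 21 alternatives were run, a replicate block among them.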

Additional observations from a re-analysis of the deposited data

How the results depend on the processing

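Members called by limma numbered 0 in all 3 comparisons under each of the 21 alternatives. These were pseudocounts of 0.1 and 1, filters of none and of 2 FPKM on the mean, median-of-ratios and quantile scaling, the compared groups alone, a replicate block, replicates 2 and 3 only, CeD 1 and CeD+GR 3 left out together, limma-voom on recovered reads, only protein-coding genes, and every library dropped in turn. With the replicate block, 0 members were called and the smallest adjusted p of a member was 0.854 in CeD+GR against CeD, 0.902 in CeD+GR against control and 1 in CeD against control. Same-numbered libraries correlated at 0.37, 0.25 and -0.12 for CeD+GR with CeD and at 0.41, 0.40 and -0.11 for CeD+GR with control, not all over 0.1, so the numbers were not taken to pair those libraries. At an unadjusted p under 0.05, limma gave between 0 members (without CeD 2) and 14 (without CeD+GR 1) in CeD+GR against CeD. In CeD+GR against control it gave between 1 (without control 2 or control 3) and 17 (without CeD+GR 1). Scaling kept every class median on its side of 0 except Gst in CeD against control, -0.05 as reported and 0.01 after quantile scaling; there the members' own median, -0.01, was 0.03. The named members kept the sign of their log2 fold changes, but several alternatives could not have turned it. A changed filter, the genes or groups fitted, and the replicate block leave a fold change as it was. Where groups do not overlap, no dropped library can turn the sign. Cyp2d9, Cyp2d10, Cyp3a59 and Sult4a1 rest on few reads, and so does Sult1c2 outside CeD+GR 3, which limits what 3 libraries can show.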
